A study of Mus musculus with 8 samples.

Results

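The 32 genes described here encode the glycolytic pathway and the cellular response to low oxygen, in cells taken from the mouse colonic lamina propria. They were chosen by name for their role, with earlier results of these data known, and all 32 were present among the 31053 genes of the deposited tables. 4 carry glucose or lactate across the membrane (Slc2a1, Slc2a3, Slc16a1, Slc16a3), 10 act in the upper part of glycolysis (Hk1, Hk2, Gpi1, Pfkl, Pfkp, Pfkm, Pfkfb3, Aldoa, Aldoc, Tpi1) and 5 in the lower part (Gapdh, Pgk1, Pgam1, Eno1, Pkm). A further 3 set the fate of pyruvate (Ldha, Ldhb, Pdk1), 3 sense oxygen (Hif1a, Egln1, Egln3) and 7 are targets of the hypoxia response (Bnip3, Bnip3l, Vegfa, Ddit4, P4ha1, Ankrd37, Mif).

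The samples were 8 single-cell RNA-seq libraries from colons of C57BL/6 mice aged 10 to 12 weeks, after enrichment of CD4+ cells with a column kit. 2 libraries came from untreated wildtype mice and 2 from untreated mice carrying a serine-to-alanine substitution in RORgt, named S182A in the series title and S203A in the sample titles. Another 2 wildtype and 2 mutant libraries came from mice given 2% dextran sulfate sodium (DSS) in the drinking water for 7 days and plain water for 3 days. All mice were harvested on day 10, the untreated ones after 10 days of plain water. DSS damages the colonic epithelium and is used to induce colitis. RORgt is the lineage factor of Th17 cells and of type 3 innate lymphoid cells. A change of one amino acid cannot be read from gene-level counts, and the genotype was taken from the labels alone. The labels name no cell type to which the substitution would be limited.

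The libraries held 10563 to 16133 barcodes and 34497509 to 46960005 unique molecular identifiers (UMIs, counted transcripts) each. Of the 100673 barcodes, 27420 were listed by the authors as CD4-positive cells, and 20810 of these fell in T cell clusters and are called CD4 T cells here (1788 to 3772 per library). The remaining barcodes included many in T cell clusters that were not on that list, and clusters outside the T cells. These clusters were named from marker genes, such as macrophage- or monocyte-like and fibroblast-like barcodes, and 2 of them and 3 T cell clusters stayed unnamed. 1176 barcode sequences occurred in more than 1 library, and no doublet caller was run. Both untreated mutant libraries stood apart in heat-shock and dissociation-stress genes, at 12110 and 11400 CPM (UMIs scaled to the same total in every library) summed over 11 genes in CD4 T cells, against 3585 to 6090 CPM in the other 6 libraries.

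Glycolysis splits glucose into pyruvate, which lactate dehydrogenase can turn into lactate for export by monocarboxylate carriers. When oxygen is scarce, the prolyl hydroxylases encoded by Egln1 and Egln3 slow down, the protein of Hif1a escapes degradation, and it binds near many glycolytic genes and others such as Vegfa. Effector T cells and inflammatory myeloid cells are known for high glycolysis, and the colonic mucosa for its low oxygen. Transcript levels, as measured here, do not report flux, oxygen or HIF-1 protein.

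A common form of the hypoxia response element contains the letters ACGTG. The other form, GCGTG, was not searched, so a window without a match can still hold an element. RefSeq windows of 250 bases before the annotated transcription start (build GRCm38.p6) were searched for ACGTG on either strand, where CACGT is its reverse complement. A palindromic CACGTG, the E-box that other factors also bind, counts as 2 matches. At least 1 window was found for 30 of the 32 genes, all but Slc2a3 and Bnip3l. Of these 30, 19 (63.3%) held a match in any window, against 18.5% of the 27025 symbols in the table. By window, 22 of 44 held one, against 16.6% of 32851. The members were listed as glycolytic and hypoxia-response genes, many of them known HIF-1 targets, so the share is a description. The symbols set against them were all those in the table, not matched for base composition or gene class. 5 windows are shown because the values below turn on these genes, with the matched letters in capitals, 5′ to 3′ on the strand of the gene. They lie at chr11:120948817-120949066 (plus strand) for Slc16a3, chr3:104638414-104638663 (plus) for Slc16a1, chr7:46845554-46845803 (plus) for Ldha, chr6:82774455-82774704 (minus) for Hk2 and chr10:59951771-59952020 (minus) for Ddit4.
Slc16a3: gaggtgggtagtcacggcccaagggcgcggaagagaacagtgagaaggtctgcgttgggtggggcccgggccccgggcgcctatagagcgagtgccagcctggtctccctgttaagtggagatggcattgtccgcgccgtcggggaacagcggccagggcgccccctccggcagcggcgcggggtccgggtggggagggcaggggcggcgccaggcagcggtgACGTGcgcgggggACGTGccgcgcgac
Slc16a1: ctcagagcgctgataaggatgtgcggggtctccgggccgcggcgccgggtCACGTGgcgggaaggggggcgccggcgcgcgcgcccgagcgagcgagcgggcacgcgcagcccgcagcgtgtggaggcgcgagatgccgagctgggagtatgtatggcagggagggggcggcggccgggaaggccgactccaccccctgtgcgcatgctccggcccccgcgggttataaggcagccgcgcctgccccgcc
Ldha: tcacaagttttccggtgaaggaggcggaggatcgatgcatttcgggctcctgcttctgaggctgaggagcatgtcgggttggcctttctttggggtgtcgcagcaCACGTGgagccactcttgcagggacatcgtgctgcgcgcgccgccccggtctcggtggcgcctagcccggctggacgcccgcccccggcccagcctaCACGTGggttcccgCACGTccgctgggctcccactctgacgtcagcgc
Hk2: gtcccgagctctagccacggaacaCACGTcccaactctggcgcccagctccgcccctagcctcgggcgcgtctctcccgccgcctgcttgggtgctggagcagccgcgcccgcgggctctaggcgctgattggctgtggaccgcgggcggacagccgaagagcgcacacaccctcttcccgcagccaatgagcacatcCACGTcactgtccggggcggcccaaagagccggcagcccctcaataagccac
Ddit4: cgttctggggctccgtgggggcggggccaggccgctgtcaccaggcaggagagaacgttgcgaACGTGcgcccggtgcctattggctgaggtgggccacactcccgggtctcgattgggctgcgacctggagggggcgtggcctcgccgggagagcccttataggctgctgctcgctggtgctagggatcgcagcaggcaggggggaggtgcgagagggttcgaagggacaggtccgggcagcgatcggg
The window of Slc16a3 held 2 matches, both near the start site, and that of Slc16a1 1 palindromic CACGTG, which counts as 2. Ldha held 5 matches, from 2 palindromes and 1 single CACGT, while a second annotated start of Ldha had none. Hk2 held 2 matches and Ddit4 1. A match in these letters says nothing of whether a factor was bound in these cells.

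Across the 16 cell types, a few members were concentrated in one population while most glycolytic enzymes were spread widely. The hypoxia target Vegfa, which encodes an angiogenic growth factor, was highest in innate lymphoid-like barcodes, a cluster led by Il22, at 834 ± 221 CPM (SD, n = 8 libraries). The second population, macrophage- or monocyte-like barcodes, had 267 ± 162 CPM, and innate lymphoid-like barcodes were higher in 8 of 8 libraries. In CD4 T cells Vegfa lay between 2.26 and 11.4 CPM, a level at which free RNA in the droplets cannot be told apart from expression. The same limit holds for other members at such levels, among them Bnip3, Ankrd37 and Ldhb in CD4 T cells. Levels are compared within a gene only, since 3′ UMI counts are not scaled for capture between genes. They are given without a test, because the populations were cut from the same cells, although the 32 genes were left out of the genes used for clustering.

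The lactate exporter Slc16a3 (ENSMUSG00000025161), also known as MCT4, was highest in neutrophil-like barcodes at 207 ± 65.1 CPM, followed by Treg-like cells at 57.2 ± 27.9 CPM. Their ranges did not overlap over the 8 libraries. The neutrophil-like cluster was led by S100a9 and S100a8 and also held monocyte genes. It had 2155 barcodes beside 9006 macrophage- or monocyte-like ones, while a coarser clustering gave 178 and 11210, so the border between these classes depended on the clustering. Egln3, the oxygen-sensing hydroxylase that is itself a hypoxia target, was highest in innate lymphoid-like barcodes at 97.0 ± 37.2 CPM, against 41.7 ± 8.86 CPM in follicular helper-like T cells. These populations did not overlap either. Hexokinase 2, the inducible enzyme of the first step, was also highest there, at 508 ± 160 CPM, with fibroblast-like barcodes second at 327 ± 107 CPM, and the 2 ranges overlapped. Naive or central memory-like T cells were lowest in Hk2 at 7.60 ± 4.80 CPM.

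Endothelial-like barcodes led for 2 targets of the hypoxia response. Ankrd37 had 32.2 ± 5.83 CPM there against 15.6 ± 3.38 CPM in proliferating T cells, without overlap. Ddit4, a stress-induced inhibitor of mTORC1, had 107 ± 15.4 CPM against 56.2 ± 17.9 CPM in innate lymphoid-like barcodes, higher in 8 of 8 libraries but with overlapping ranges. The pericyte gene Rgs5 was among the leading genes of the larger endothelial-like cluster. Smooth muscle- or pericyte-like barcodes led for Ldhb, the heart-type lactate dehydrogenase, at 73.0 ± 30.6 CPM, and for the mitophagy receptor Bnip3, at 38.1 ± 11.3 CPM. The second populations of both overlapped with them, with squamous epithelium-like barcodes at 37.4 ± 31.5 CPM for Ldhb and neutrophil-like barcodes at 21.9 ± 10.8 CPM for Bnip3.

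Hif1a itself was highest in T cell populations. Follicular helper-like T cells had 1674 ± 160 CPM and Th17-like cells 1184 ± 102 CPM, with no overlap, while plasma cell-like barcodes were lowest at 57.2 ± 6.36 CPM. The 10 leading genes of the follicular helper-like cluster held 4 haemoglobin genes (Hbb-bs, Hba-a1, Hba-a2 and Hbb-bt) and 1 follicular helper marker, so this name rests mainly on the score of its 7 markers, here and for Egln3. Over the 8 libraries the highest and the second population were apart for 5 genes, Slc16a3, Hif1a, Egln3, Vegfa and Ankrd37, and overlapped for all others. Under a coarser clustering, 18 of the 32 genes kept their highest population, and Ankrd37 then led in a neutrophil-like cluster of only 178 barcodes. Rescaling by the median gene, whose shift ran from -1.01 in plasma cell-like to 0.26 in Treg-like cells on the log2 scale, kept the highest population of 22 genes. Gapdh, Pgk1, Eno1, Pkm, Ldha and Mif then moved from proliferating T cells to neutrophil-like or squamous epithelium-like barcodes.

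**Figure D1:**
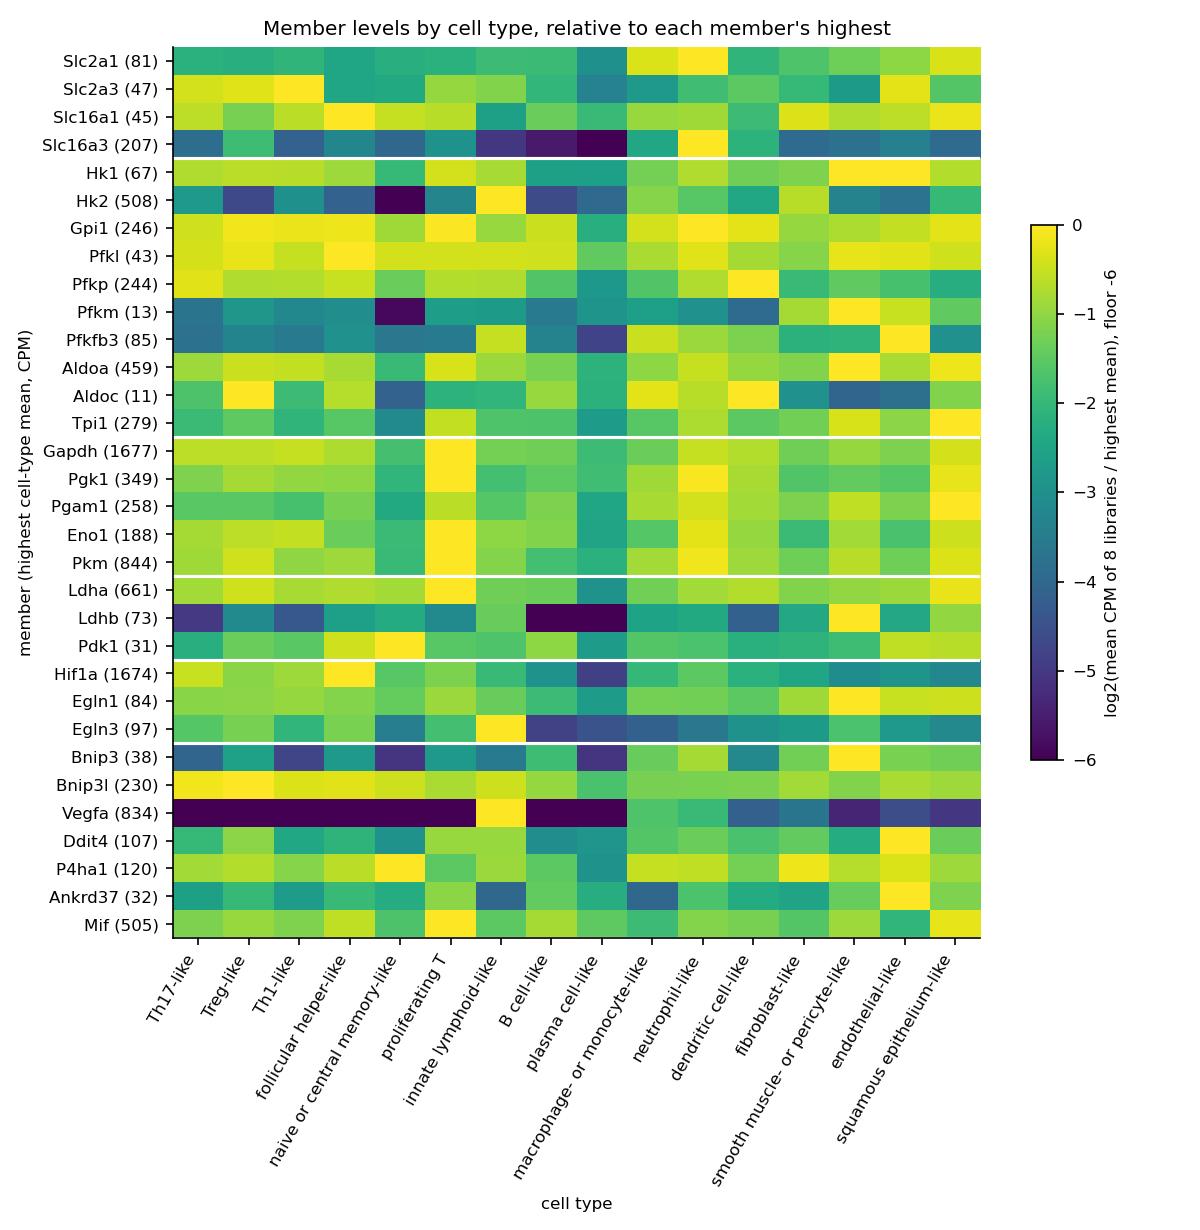
Level of each of the 32 genes (rows, by role, with the highest cell-type mean in CPM in brackets) in 16 cell types (columns), as log2 of the mean CPM of 8 libraries over the gene's highest mean. Vegfa is far below its innate lymphoid-like level of 834 CPM in all T cell columns, Slc16a3 is highest in the neutrophil-like column at 207 CPM, and the lower glycolytic enzymes are pale across most columns.

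Summed over 17 glycolytic enzymes, the share of all UMIs was 0.341% ± 0.0174 in CD4 T cells (0.311% to 0.363% over 8 libraries). Proliferating T cells were highest among T cells at 0.498% ± 0.0464, and naive or central memory-like T cells lowest at 0.172% ± 0.0190. These 2 ranges did not overlap. Neutrophil-like barcodes had 0.420% ± 0.0391. Plasma cell-like barcodes had 0.121% ± 0.0117, in a population where the median gene of the whole table was lower too (-1.01 on the log2 scale). Squamous epithelium-like barcodes, 24 to 145 per library, ranged from 0.141% to 0.547% without treatment and from 0.5695% to 0.699% after DSS. These groups did not overlap. Nor did they in proliferating T cells (0.418% to 0.492% and 0.515% to 0.566%) and endothelial-like barcodes (0.226% to 0.245% and 0.265% to 0.328%). In innate lymphoid-like barcodes every DSS library was lower (0.297% to 0.3365% and 0.259% to 0.292%). In the remaining populations the groups overlapped. These sums were not tested.

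Within a pair of related genes, the share of the UMIs held by each varied across cell types. Such a share is read across cell types only, since capture can differ between the 2 genes. Of the UMIs of Hk1 and Hk2, Hk2 held 92.3% ± 3.15 in innate lymphoid-like barcodes, 90.9% ± 3.01 in fibroblast-like and 89.1% ± 3.47 in macrophage- or monocyte-like barcodes. In Th17-like cells it held 63.4% ± 6.00, and in Treg-like cells 30.02% ± 8.94. The lowest Th17-like library, at 52.9%, lay above the highest Treg-like library, at 44.4%. The other gene, Hk1, encodes the hexokinase that is present in most tissues.

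Of the glucose carriers, Slc2a3 (GLUT3) held 71.1% ± 5.71 of the UMIs of Slc2a1 and Slc2a3 in Th1-like cells but 9.94% ± 2.44 in macrophage- or monocyte-like barcodes, the rest being Slc2a1 (GLUT1). Of the lactate carriers, Slc16a3 held 89.3% ± 2.23 in neutrophil-like barcodes and 70.8% ± 14.7 in Treg-like cells. In Th17-like cells it held 32.2% ± 11.6 and in plasma cell-like barcodes 14.2% ± 4.50, the rest being Slc16a1 (MCT1). Egln3 held 73.8% ± 7.36 of the Egln1 and Egln3 UMIs in innate lymphoid-like barcodes and 13.0% ± 5.06 in B cell-like barcodes.

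Shares in the remaining families are given by their range over cell types. Pfkp, the platelet-type phosphofructokinase, held from 56.2% ± 15.9 (squamous epithelium-like) to 90.1% ± 2.99 (dendritic cell-like) of the phosphofructokinase UMIs, and Pfkm, the muscle type, reached 9.74% in smooth muscle- or pericyte-like barcodes. Ldhb stayed between 0.413% ± 0.328 of the lactate dehydrogenase UMIs in B cell-like barcodes and 18.0% ± 8.26 in smooth muscle- or pericyte-like barcodes. Bnip3 ranged from 0.680% ± 1.07 to 26.6% ± 6.69 of the Bnip3 and Bnip3l UMIs, and Aldoc held at most 4.45% of the aldolase UMIs, in dendritic cell-like barcodes.

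**Figure D2:**
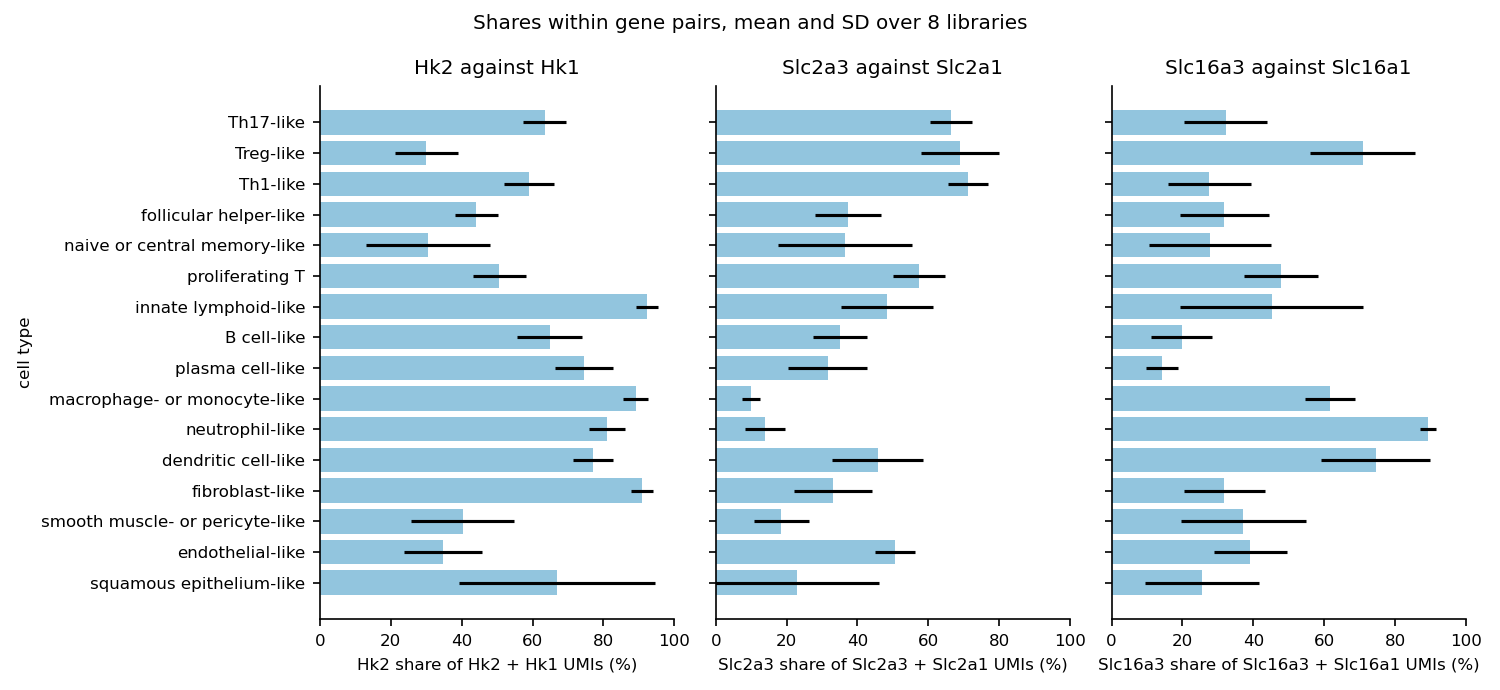
Share (%) of a pair's UMIs held by the named gene (panels) in each cell type (rows), as the mean of 8 libraries (bars) with the SD (lines). Hk2 lies near 90% in innate lymphoid-like, fibroblast-like and macrophage- or monocyte-like barcodes and near 30% in Treg-like cells, and Slc16a3 is highest in neutrophil-like barcodes at 89.3%.

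DSS was compared with no treatment in 5 populations, with UMIs summed per library so that the library, not the cell, was the replicate. edgeR's quasi-likelihood test ran over all genes passing a filter on low counts, and a gene was called at a Benjamini-Hochberg adjusted p under 0.05. Beside the comparison within each genotype, the mean of both DSS effects was tested, which uses 4 libraries against 4. The series text names independent biological replicates, so the p-values measure the spread between such libraries. The averaged comparison uses the libraries of both others, which share none with each other. Libraries of neighbouring animal numbers, 1 of each genotype, deviated from their group means together in part (correlations 0.006 to 0.329 across genes). With 2 libraries a group their deviations mirror each other, so the opposite pairing would give the same values with a minus sign. Neighbours always shared a treatment, so a difference in handling between the treatments cannot be told apart from DSS. The averaged edgeR p-values treat neighbouring libraries as independent, and calls lost with these neighbours as a replicate block are named below. That fit used limma-voom and was chosen after seeing the data. In simulated CD4 T cell counts with 10875 genes, the averaged comparison called 99% of genes changed by 1 log2 unit and 50% of those changed by 0.5. The wildtype comparison called 78% and 10%. The changed genes were drawn from those above 10 CPM on average, so lower members such as Bnip3 and Vegfa in CD4 T cells were not covered. The simulated libraries were independent of each other. Only 100 genes were changed by each amount, while the real comparisons called 2016 (averaged) and 32 (wildtype). The shares called depend on how many genes change, so they need not hold for the real data. Of the simulated calls, 19 of 168 (averaged) and 11 of 99 (wildtype) were false, a larger share than the 0.05 aimed at.

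In CD4 T cells, DSS libraries had more Slc16a3 and less Hk2, and most of the pathway was not called. All 32 members were tested. In the averaged comparison 6 members (18.8%) were called, Slc16a3, Egln1, Pkm and Bnip3 higher and Hk2 and Slc2a3 lower, against 18.2% of the 11055 genes tested (9.01% higher, 9.23% lower). The members' share was thus near that of all genes. Their median log2 fold change was 0.06, against 0.009 over all genes. In wildtype mice alone edgeR called no member, against 0.289% of all genes (0.172% higher, 0.118% lower), and DESeq2 called 1, Hk2. At an unadjusted p under 0.05 there were 9 members in that comparison, against 18.4% of all genes. In mutant mice 2 were called, Slc16a3 and Egln1, both higher, against 4.9% of all genes (2.24% higher, 2.66% lower). The untreated mutant libraries in that comparison were the ones high in stress genes.

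Slc16a3 had 18.0 and 14.5 CPM in untreated wildtype, 15.6 and 11.3 CPM in untreated mutant, 22.0 and 43.2 CPM in DSS-treated wildtype and 34.4 and 41.6 CPM in DSS-treated mutant libraries. Every DSS library was above every untreated one, and the lowest DSS library, wildtype replicate 1, was close to the untreated range. It rose by 1.17 ± 0.20 on the log2 scale (SE, edgeR adjusted p = 0.00779) in the averaged comparison and by 1.42 ± 0.29 in mutant mice (edgeR adjusted p = 0.0324). In wildtype mice the difference was 0.92 ± 0.28 and was not called (edgeR adjusted p = 0.145). The call in mutant mice was lost when any 1 of 5 libraries was left out (edgeR adjusted p up to 0.191).

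Slc16a3 is a gene that neutrophil-like barcodes carry at a higher level, so marker lists of other cells were read beside it. In CD4 T cells 7 neutrophil markers summed to 11.6 to 15.4 CPM without treatment and 19.1 to 29.8 CPM after DSS, and 4 of the 7 did not overlap. The 10 macrophage or monocyte markers summed to 220.5 to 420.4 and 379.6 to 635.1 CPM. Innate lymphoid markers summed to 505.6 to 765.9 and 835.3 to 1314 CPM, with 1 of 9 genes without overlap, and dendritic cell markers to 123.4 to 143.2 and 153.8 to 243.3 CPM. The 7 T cell markers summed to 3466 to 3981 CPM without treatment and 2936 to 3384 CPM after DSS. The part of these lists in the member changes was not tested. A filter then kept T cells without a UMI of the macrophage or monocyte, neutrophil, fibroblast, endothelial, epithelial or B cell markers (605 to 1249 per library). In these Slc16a3 was still called, at 1.06 (edgeR adjusted p = 0.0109). Innate lymphoid, dendritic and plasma cell markers were not part of the filter. Ccr2, which held most of the macrophage or monocyte sum in Treg-like cells, was part of it. Below, T cells free of other markers are those left by this filter. Without the second untreated wildtype library the averaged call was lost (edgeR adjusted p = 0.058).

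Hk2 (ENSMUSG00000000628) had 60.3 and 58.2 CPM in untreated wildtype, 65.9 and 53.7 CPM in untreated mutant, 36.4 and 35.4 CPM in DSS-treated wildtype and 50.8 and 35.8 CPM in DSS-treated mutant libraries. Every DSS library was below every untreated one. It fell by 0.68 ± 0.12 on the log2 scale (edgeR adjusted p = 0.0079), and by 0.52 in the T cells free of other markers (edgeR adjusted p = 0.0443). Here too the call was lost without the second untreated wildtype library (edgeR adjusted p = 0.053). The difference was -0.79 ± 0.17 in wildtype and -0.56 ± 0.16 in mutant mice, not called in either (edgeR adjusted p = 0.0746 and 0.0703).

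Egln1, the main oxygen-sensing hydroxylase, had 36.6, 30.7, 36.0 and 25.3 CPM in the 4 untreated and 48.0, 45.5, 55.8 and 49.4 CPM in the 4 DSS libraries, wildtype first. The groups did not overlap, and it rose by 0.55 ± 0.11 on the log2 scale (edgeR adjusted p = 0.0135), a call lost when any 1 of 2 libraries was left out (edgeR adjusted p up to 0.0802). Slc2a3 had 36.4, 36.8, 35.3 and 35.6 CPM without treatment and 28.7, 27.0, 25.9 and 31.3 CPM after DSS, in the same order, and fell by 0.42 ± 0.09 (edgeR adjusted p = 0.0159), a call lost without any 1 of 3 libraries (edgeR adjusted p up to 0.0792). In T cells free of other markers neither was called, with 0.53 for Egln1 (edgeR adjusted p = 0.0746) and -0.17 for Slc2a3 (edgeR adjusted p = 0.573). Without the heat-shock T cell cluster Slc2a3 was not called either, at -0.29 (edgeR adjusted p = 0.0642). The call of Egln1 in mutant mice, 0.70 (edgeR adjusted p = 0.044), was lost without that cluster, at 0.63 (edgeR adjusted p = 0.0643), in the T cells free of other markers and when any 1 of 6 libraries was left out.

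Pkm, the last enzyme of glycolysis, had 429, 476, 464 and 439 CPM without treatment and 549, 597, 576 and 612 CPM after DSS, wildtype first, and rose by 0.29 ± 0.08 on the log2 scale (edgeR adjusted p = 0.0308). In T cells free of other markers the difference was 0.12 and not called (edgeR adjusted p = 0.451). Nor was it called in T cell barcodes without a Cd8 UMI, listed or not, or when any 1 of 6 libraries was left out (edgeR adjusted p up to 0.102). Bnip3 lay at 1.75, 2.60, 2.42 and 3.62 CPM without treatment and 3.81, 4.55, 6.27 and 5.12 CPM after DSS, a rise of 0.83 ± 0.24 (edgeR adjusted p = 0.0381). This call was lost in edgeR when any 1 library was left out. With all 8 libraries it was also lost in DESeq2 (adjusted p = 0.124) and with the replicate block (limma adjusted p = 0.0775).

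Among the members not called, Hif1a had 869 to 1175 CPM without treatment and 832 to 1025 CPM after DSS, with a difference of -0.19 ± 0.11. Ldha and Gapdh differed by 0.02 ± 0.08 and -0.12 ± 0.08, and their groups overlapped. Ldhb had 4.93, 9.16, 9.19 and 9.04 CPM in the untreated and 5.71, 4.14, 5.29 and 7.11 CPM in the DSS libraries, wildtype first, a difference of -0.59 ± 0.22 (edgeR adjusted p = 0.0901). One untreated wildtype library lay within the DSS range. Vegfa, at 8.11, 2.75, 4.998 and 2.26 CPM against 3.81, 11.4, 7.93 and 8.30 CPM, overlapped and was not called (0.74 ± 0.40, edgeR adjusted p = 0.219).

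Other members with large differences in one genotype also missed the threshold. Eno1 had 99.6 and 144 CPM in untreated and 111 and 65.8 CPM in DSS-treated wildtype libraries, a difference of -0.52 that overlapped, and 132 and 129.8 against 124 and 122.5 CPM in mutant libraries. Ankrd37, with 4.30 and 7.33 against 8.95 and 10.5 CPM in wildtype, did not overlap (0.66), and had 7.74 and 6.48 against 8.21 and 9.50 CPM in mutant libraries. Egln3 in mutant mice had 37.6 and 36.9 CPM without treatment and 32.7 and 22.3 CPM after DSS (-0.54), and in wildtype mice 28.5 and 35.0 against 38.4 and 27.7 CPM.

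CD4 T cells are a mixture of subsets. Treg-like cells made up 9.49% to 13.0% of CD4 T cells in the 4 untreated and 20% to 26.2% in the 4 DSS libraries, without overlap. The shares of Th1-like, Th17-like and proliferating cells overlapped. Th1-like cells were at 14.5% to 26.8% and 7.14% to 18.0%, Th17-like cells at 8.0% to 22.8% and 7.95% to 36.1%. Proliferating cells were at 3.7% to 8.39% and 5.54% to 8.03%. The shares of the remaining clusters within each library were not computed. An unnamed T cell cluster of 2676 cells, led by Eomes and Gzmk, came mostly from DSS libraries. Untreated libraries gave 8.3%, 4.9%, 2.2% and 3.6% of this cluster, wildtype first, and DSS libraries 18.9%, 22.8%, 15.1% and 24.2%. The DSS libraries also held more CD4 T cells each. In a sum over cells, more cells of a subset and more RNA per cell cannot be told apart. Treg-like cells carried more Slc16a3 and a smaller Hk2 share than Th17-like cells, and both genes were also tested within each subset. The part of the subset shares in the values of CD4 T cells was not tested.

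**Figure D3:**
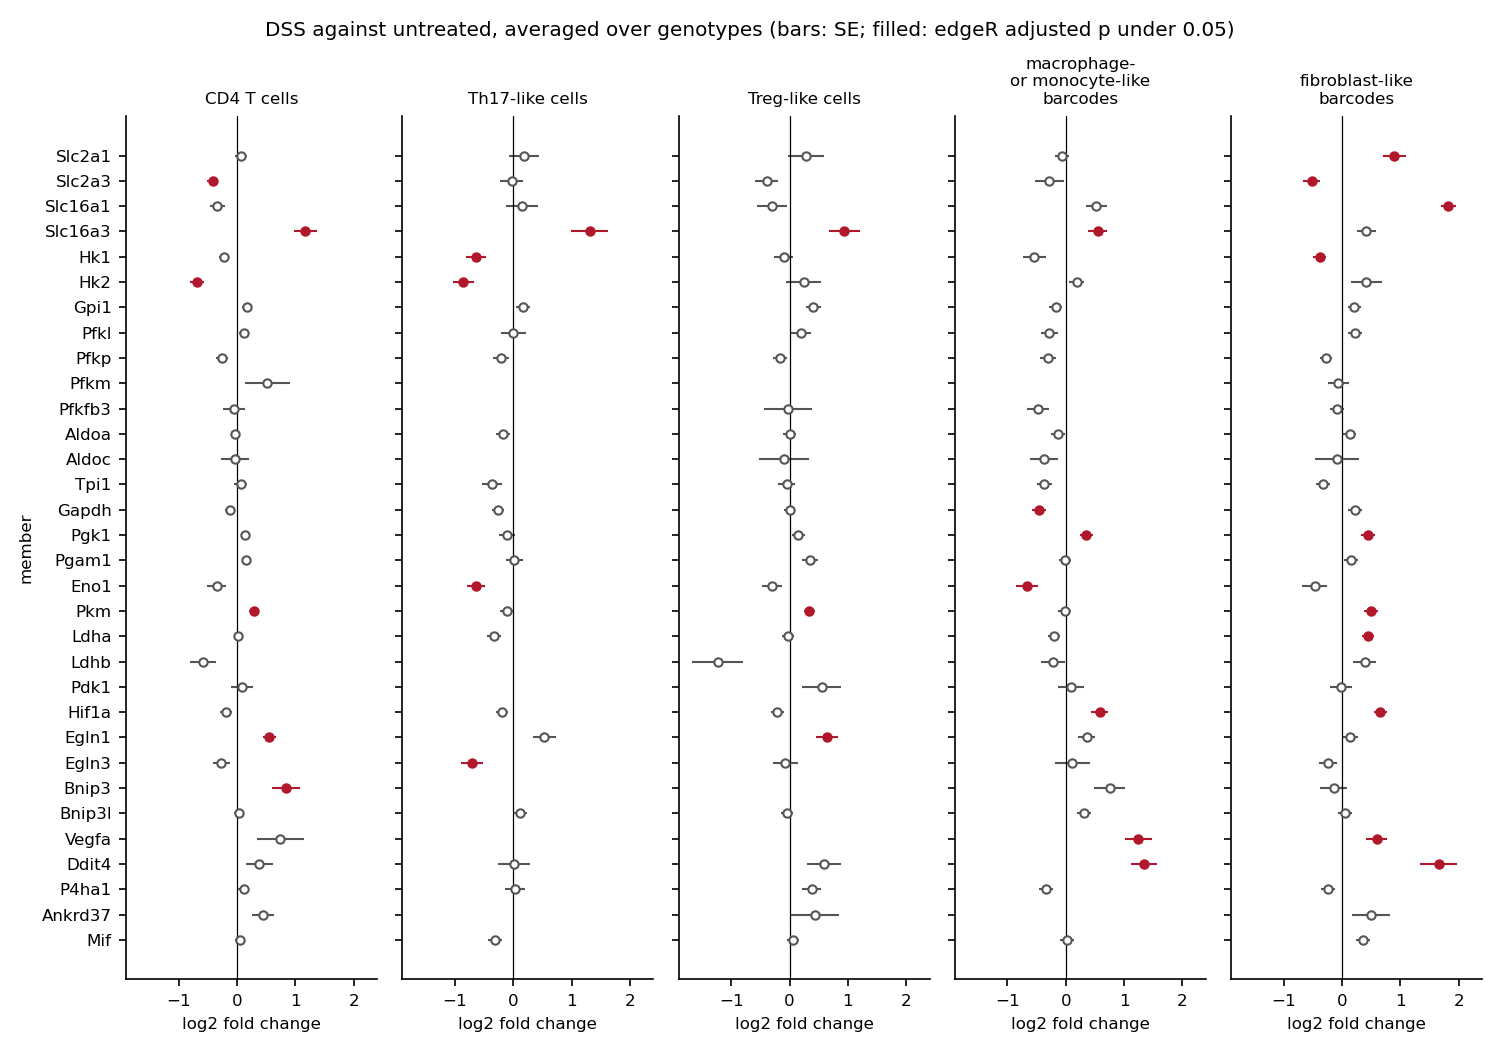
Log2 fold change after DSS, averaged over genotypes, for each tested member (rows) in 5 populations (panels), with the standard error as a bar and filled points for an edgeR adjusted p under 0.05. Slc16a3 is filled to the right of 0 in 4 panels and Hk2 to the left in the CD4 T and Th17-like panels, while Slc16a1, Ddit4 and Hif1a lie to the right in fibroblast-like barcodes.

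In Th17-like cells, a cluster led by Il17a and Il17f, both hexokinases and Eno1 were lower after DSS and Slc16a3 higher. 24 members were tested, and Pfkm, Pfkfb3, Aldoc, Ldhb, Pdk1, Bnip3, Vegfa and Ankrd37 were too low. The averaged comparison called 5 (20.8%), 1 higher and 4 lower, against 4.96% of all genes (2.46% higher, 2.49% lower). The median log2 fold change of the 24 was -0.11, against 0.019 over all genes. In mutant mice Slc16a3 was called higher and Hk2 lower, against 2.63% of all genes (1.27% higher, 1.36% lower). In wildtype mice edgeR and DESeq2 called none, against 0.0418% of all genes by edgeR (0.0139% higher, 0.0278% lower), and 7 had an unadjusted p under 0.05, against 9.9% of all genes.

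Hk2 in Th17-like cells had 92.2, 82.0, 114 and 92.1 CPM in the untreated and 47.3, 65.8, 61.5 and 36.3 CPM in the DSS libraries, wildtype first. The groups did not overlap, and the fall was 0.86 ± 0.18 on the log2 scale (edgeR adjusted p = 0.00989). Hk1 had 39.3, 52.9, 52.9 and 55.0 CPM against 34.1, 29.0, 33.7 and 32.3 CPM, and fell by 0.64 ± 0.17 (edgeR adjusted p = 0.0396). Eno1, the enolase, fell by 0.64 ± 0.16 (edgeR adjusted p = 0.0247), from 102.5, 123, 144 and 161 CPM to 89.1, 52.2, 108 and 81.7 CPM, with overlap. The Eno1 retrocopy Eno1b had 48 UMIs against 7622 for Eno1 in CD4 T cells. How reads matching both were counted was not examined.

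Slc16a3 in Th17-like cells had 10.2, 7.94, 6.34 and 6.88 CPM without treatment and 14.8, 23.2, 20.1 and 27.2 CPM after DSS. No DSS library reached down to the untreated range, and the rise was 1.31 ± 0.32 on the log2 scale (edgeR adjusted p = 0.0243). These levels are close to those at which free RNA cannot be told apart from expression, and limma-voom did not call the gene (adjusted p = 0.056). The neutrophil markers overlapped, with 10.6 to 19.9 and 10.1 to 28.9 CPM, while the T cell markers summed to 3417 to 4055 CPM without treatment and 2560 to 3342 CPM after DSS. Heat-shock and dissociation-stress genes summed to 10790 and 11010 CPM in untreated and 4424 and 5034 CPM in DSS-treated mutant libraries. The part of these lists was not tested. Egln3 fell by 0.71 ± 0.19 (edgeR adjusted p = 0.0385), from 39.3, 41.0, 35.95 and 44.7 CPM to 29.0, 19.4, 24.9 and 24.2 CPM, without overlap. The Th17-like libraries held 143 to 1015 cells, each of the 5 averaged calls was lost when at least 1 library was left out (as were both calls in mutant mice), and DESeq2 called 2, Hk2 and Eno1, and gave the others no adjusted p. With the replicate block Hk2 and Eno1 were called and Hk1, Slc16a3 and Egln3 were not (limma adjusted p = 0.061, 0.0903 and 0.0579).

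In Treg-like cells Slc16a3, Egln1 and Pkm were higher after DSS and Hk2 was not called. 29 members were tested, all but Pfkm, Bnip3 and Vegfa, and the averaged comparison called 3 (10.3%), all higher, against 9.59% of all genes (4.56% higher, 5.03% lower). Their median log2 fold change was 0.00, against 0.007 over all genes. Slc16a3 had 67.9, 21.2, 38.4 and 26.7 CPM without treatment and 45.0, 91.2, 78.5 and 88.6 CPM after DSS, wildtype first. One untreated wildtype library lay above the lowest DSS library, and the difference was 0.94 ± 0.27 on the log2 scale (edgeR adjusted p = 0.0377). The macrophage or monocyte markers, among which Ccr2 held most, summed to 557.2 to 887.1 and 740.2 to 1043 CPM. Innate lymphoid markers summed to 828 to 1267 and 1369 to 1931 CPM and CD8 T cell markers to 956.6 to 1165 and 487.3 to 784.3 CPM, each without overlap of the sums. The T cell markers summed to 3852 to 4510 CPM without treatment and 3354 to 3655 CPM after DSS, 2 of 7 without overlap. The part of these lists was not tested. limma-voom did not call Slc16a3, without the replicate block (adjusted p = 0.063) or with it (adjusted p = 0.09). In edgeR the averaged calls were lost when any 1 of 4 libraries was left out for Slc16a3 and Egln1 and any 1 of 6 for Pkm (edgeR adjusted p up to 0.179, 0.189 and 0.144).

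Pkm in Treg-like cells had 572, 538, 549 and 529 CPM without treatment and 629, 763, 699.9 and 751 CPM after DSS, wildtype first, and rose by 0.34 ± 0.10 on the log2 scale (edgeR adjusted p = 0.0368). Egln1 had 38.8, 24.5, 24.4 and 38.2 CPM and then 45.8, 51.6, 53.5 and 50.7 CPM, without overlap, and rose by 0.64 ± 0.19 (edgeR adjusted p = 0.0408), though not in DESeq2 (adjusted p = 0.159) or limma-voom (adjusted p = 0.0595, and 0.102 with the replicate block). Hk2 differed by 0.24 ± 0.30 (edgeR adjusted p = 0.652). Whether its change differed between Treg-like and Th17-like cells was not tested. In wildtype libraries Gpi1, the isomerase of the second step, had 241 and 212 CPM without treatment and 216 and 268 CPM after DSS. In mutant mice it went from 190.0 and 122 CPM to 281 and 262 CPM, a rise of 0.76 ± 0.18 (edgeR adjusted p = 0.0366), the 1 member called, against 2.27% of all genes called (0.884% higher, 1.39% lower). It was lost when any 1 of 5 libraries was left out (edgeR adjusted p up to 0.34). Heat-shock and dissociation-stress genes summed to 6173 and 7819 CPM in these untreated mutant libraries and 3319 and 3387 CPM in the DSS-treated ones, and their part was not tested. In wildtype mice edgeR and DESeq2 called no member, against 0.624% of all genes by edgeR, and 3 had an unadjusted p under 0.05, against 14.2% of all genes.

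In macrophage- or monocyte-like barcodes Ddit4 and Vegfa, targets of the hypoxia response, had the largest rises after DSS, and 2 glycolytic enzymes fell. 30 members were tested, all but Pfkm and Ankrd37. The averaged comparison called 7 (23.3%), Ddit4, Vegfa, Hif1a, Slc16a3 and Pgk1 higher and Gapdh and Eno1 lower, against 24.1% of all genes. The share was near that of all genes, and the median log2 fold change was -0.04, against 0.010. In mutant mice 4 were called, Ddit4, Vegfa, Slc16a3 and Hif1a, all higher, against 14.1% of all genes. In wildtype mice edgeR and DESeq2 called none, against 0.374% of all genes by edgeR, and 5 had an unadjusted p under 0.05, against 18.9% of all genes.

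Vegfa (ENSMUSG00000023951) had 191 and 141 CPM in untreated wildtype, 111 and 139 CPM in untreated mutant, 264 and 497 CPM in DSS-treated wildtype and 264 and 529 CPM in DSS-treated mutant libraries. All DSS libraries were above all untreated ones, and within each genotype 1 DSS library was much higher than the other. The rise was 1.24 ± 0.23 on the log2 scale (edgeR adjusted p = 0.00426). Ddit4 had 21.2, 16.1, 15.9 and 18.2 CPM without treatment and 32.4, 47.8, 41.8 and 89.2 CPM after DSS, wildtype first, and rose by 1.34 ± 0.22 (edgeR adjusted p = 0.00268). Both averaged calls held when any 1 library was left out, in DESeq2 and without the filter on low counts. The other 5 averaged calls were lost in 1 or more of the 8 fits that left out a library, Hif1a in 1, Gapdh in 4, Eno1 and Slc16a3 in 5 and Pgk1 in 7. In mutant mice Hif1a was lost in 7, Slc16a3 and Vegfa in 3 and Ddit4 in 1.

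Hif1a in these barcodes had 308, 316, 253 and 349 CPM without treatment and 546, 446, 520 and 577 CPM after DSS. The groups did not overlap, and the rise was 0.58 ± 0.14 on the log2 scale (edgeR adjusted p = 0.0117). Slc16a3 went from 33.1, 34.8, 28.1 and 20.2 CPM to 35.5, 51.6, 44.4 and 61.5 CPM, a rise of 0.55 ± 0.16 (edgeR adjusted p = 0.0247). Pgk1, the first ATP-forming enzyme of glycolysis, went from 163, 169, 149.7 and 150.4 CPM to 236, 199.8, 220.2 and 263 CPM, by 0.35 ± 0.11 (edgeR adjusted p = 0.0386), a call lost with the replicate block (limma adjusted p = 0.0632).

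Another pair of lower glycolytic enzymes went the other way. Gapdh had 643, 794, 755 and 700 CPM without treatment and 643, 531, 642 and 574 CPM after DSS, with the groups touching, and fell by 0.46 ± 0.12 on the log2 scale (edgeR adjusted p = 0.0208). Eno1 had 55.9, 79.7, 78.0 and 79.2 CPM against 59.9, 30.02, 65.0 and 56.9 CPM, with overlap, and fell by 0.67 ± 0.19 (edgeR adjusted p = 0.0286). The cells themselves also differed between the groups. 10 macrophage or monocyte markers summed to 15610 to 19740 CPM without treatment and 10040 to 12300 CPM after DSS, 8 of the 10 without overlap, and the median UMIs per barcode were 3272 to 5157 and 2189 to 3196. Heat-shock and dissociation-stress genes summed to 20120 and 17590 CPM in the untreated mutant libraries against 4373 and 4651 CPM in the DSS-treated mutant libraries, the pair behind the 4 calls in mutant mice, and to 5152 and 8285 against 7732 and 3626 CPM in wildtype. Plasma cell markers summed to 429.6 to 659 and 745.4 to 1195 CPM, 2 of 7 without overlap. Treg markers summed to 344.6 to 408 and 463.1 to 739.5 CPM, 6 of 8 without overlap. T cell markers summed to 258.3 to 318.9 and 324.1 to 503.7 CPM, 4 of 7 without overlap. Th17 markers summed to 1312 to 1911 and 504.4 to 1207 CPM, 2 of 8 lower without overlap. The part of these lists in the results, Hif1a included, was not tested.

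In fibroblast-like barcodes the lactate carrier Slc16a1 (ENSMUSG00000032902) had the lowest adjusted p of any member in the 5 populations tested. All 32 were tested, and the averaged comparison called 10 (31.2%), against 18.3% of all genes. Slc16a1, Hif1a, Ddit4, Slc2a1, Ldha, Pkm, Pgk1 and Vegfa were higher and Slc2a3 and Hk1 lower. The median log2 fold change was 0.18, against -0.007 over all genes. In mutant mice 3 were called, Slc16a1, Hif1a and Ddit4, against 6.84% of all genes, and in wildtype mice 1, Slc16a1, against 4.17%.

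Slc16a1 had 18.6 and 18.5 CPM in untreated wildtype, 14.6 and 13.2 CPM in untreated mutant, 59.1 and 53.0 CPM in DSS-treated wildtype and 47.8 and 62.8 CPM in DSS-treated mutant libraries. The groups lay far apart, and the rise was 1.82 ± 0.13 on the log2 scale (edgeR adjusted p = 5.87e-05). It was 1.62 ± 0.19 in wildtype (edgeR adjusted p = 0.00227) and 2.03 ± 0.19 in mutant mice (edgeR adjusted p = 0.000847). With it the share of Slc16a3 among the 2 lactate carriers went from 33.7% to 45.3% over the untreated libraries to 18.4% to 27.5% over the DSS libraries, the reverse of CD4 T cells, where it went from 25.2% to 42.3% to 43.1% to 66.6%.

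Hif1a had 258, 264, 198 and 223 CPM without treatment and 384, 302, 382 and 395 CPM after DSS, wildtype first, without overlap, and rose by 0.66 ± 0.11 on the log2 scale (edgeR adjusted p = 0.00348). Ddit4 had 17.4, 20.5, 22.2 and 18.2 CPM against 32.9, 70.0, 38.0 and 93.0 CPM, and rose by 1.66 ± 0.32 (edgeR adjusted p = 0.0078). The 2 second DSS replicates were the high ones, as for Ddit4 and Vegfa in macrophage- or monocyte-like barcodes. Slc2a1, the glucose carrier GLUT1, had 18.4, 20.8, 17.2 and 18.0 CPM and then 22.9, 39.7, 29.9 and 38.5 CPM, without overlap, and rose by 0.90 ± 0.19 (edgeR adjusted p = 0.0116).

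Ldha, Pkm and Pgk1 rose by smaller steps. Ldha went from 257.5, 255, 253 and 261 CPM to 371, 334, 327 and 339 CPM, wildtype first, by 0.45 ± 0.10 on the log2 scale (edgeR adjusted p = 0.0138). Pkm went from 271, 317, 272 and 271.5 CPM to 362, 386, 368 and 435 CPM, by 0.49 ± 0.12 (edgeR adjusted p = 0.0206). None of these groups overlapped. Pgk1 rose by 0.44 ± 0.12, from 91.3, 108.5, 98.6 and 93.5 CPM to 122, 129, 119 and 147 CPM (edgeR adjusted p = 0.0349). Vegfa, at 64.4, 49.2, 51.4 and 49.4 CPM against 60.8, 92.4, 66.0 and 91.7 CPM, overlapped and rose by 0.60 ± 0.18 (edgeR adjusted p = 0.0482). Within each of 2 fibroblast-like clusters, 10 and 17, described next, it differed by 0.15 and was not called (edgeR adjusted p = 0.613 and 0.647). The pair that fell was lower in every DSS library. Slc2a3, at 13.05, 15.9, 13.45 and 13.6 CPM against 8.36, 7.99, 10.4 and 11.5 CPM, fell by 0.52 ± 0.14 (edgeR adjusted p = 0.0303). Hk1, at 31.1, 38.1, 33.4 and 35.1 CPM against 25.6, 25.4, 27.1 and 25.2 CPM, fell by 0.38 ± 0.11 (edgeR adjusted p = 0.045). DESeq2 did not call the last pair. With the replicate block Vegfa, Slc2a3 and Hk1 were not called (limma adjusted p = 0.0606, 0.0572 and 0.0742).

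The fibroblast-like population rested on different clusters in the 2 conditions, cluster 8 mostly from untreated libraries and cluster 17 from both. An unnamed cluster of 1949 barcodes, led by Ogn and Pdgfra, scored highest for fibroblast markers (5.86) but was left out of this population. Untreated libraries gave 15.4% to 25.6% of it and DSS libraries 1.3% to 5.7%. The coarser clustering named a cluster of the same size, also led by Ogn, fibroblast-like, and no fit was run with it. Cluster 10 (led by Igfbp5, Grem1 and Il11) came mostly from the second DSS replicates, 34.1% wildtype and 26.7% mutant. The first DSS replicates gave 2.7% (wildtype) and 12.9% (mutant) of it, and the untreated libraries 2.7% to 9.6%. The first DSS-treated wildtype library held 222 fibroblast-like barcodes, and the others 827 to 1649. The comparison was therefore repeated within clusters 10 and 17, a choice made after seeing the data. In the averaged comparison Slc16a1 rose by 1.82 in cluster 10 and 1.31 in cluster 17, Ddit4 by 1.87 and 1.30 and Hif1a by 0.55 and 1.04. All 3 were called in both clusters (largest edgeR adjusted p = 0.0131). In mutant mice alone Ddit4 was called in cluster 10 (1.86, edgeR adjusted p = 0.0204) but not in cluster 17 (1.02, edgeR adjusted p = 0.0796). In the averaged comparison Slc2a1, Ldha, Pkm and Pgk1 were called in cluster 17 and not in cluster 10. In cluster 10 Slc2a1 and Pkm differed by 0.06 each (edgeR adjusted p = 0.892 and 0.79), and Pgk1 had the opposite sign (-0.12, edgeR adjusted p = 0.573). Ldha differed by 0.35 in cluster 10 (edgeR adjusted p = 0.0634). Vegfa, Slc2a3 and Hk1 were called in neither cluster. Slc2a3 differed by -0.50 and -0.42 in clusters 10 and 17 (edgeR adjusted p = 0.268 and 0.383), and Hk1 by -0.22 and -0.51 (edgeR adjusted p = 0.42 and 0.0883). Over all fibroblast-like barcodes, the averaged calls other than Slc16a1 and Hif1a were lost in 2 to 8 of the 8 fits that left out a library. In mutant mice Hif1a was lost in 2 and Ddit4 in 5, and in wildtype mice Slc16a1 in 1.

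Other features of the fibroblast-like barcodes moved with DSS. Heat-shock and dissociation-stress genes summed to 22390 to 25600 CPM without treatment and 12450 to 13390 CPM after DSS, 9 of 11 genes without overlap. Plasma cell markers summed to 1135 to 1841 and 3501 to 5893 CPM, and macrophage or monocyte markers to 1009 to 1691 and 360.7 to 624.5 CPM. Innate lymphoid markers summed to 137.4 to 201.2 and 245.9 to 358.3 CPM, and B cell markers to 31.78 to 52.51 and 63.4 to 93.96 CPM. Naive or central memory markers summed to 528 to 783.8 and 308.7 to 451 CPM. Median UMIs per barcode were 4242 to 5446 and 5677 to 8129. Their part in the member changes was not tested.

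**Figure D4:**
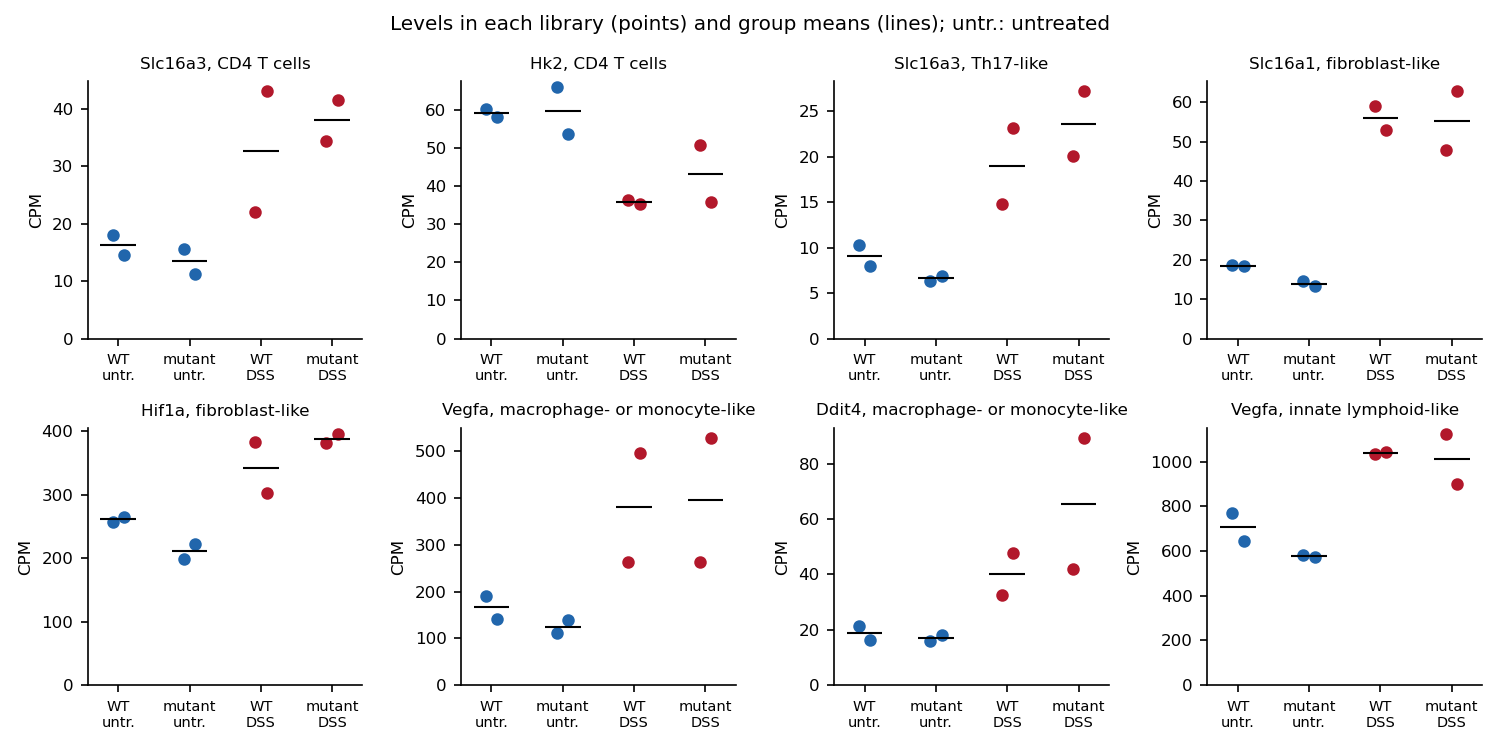
CPM of 8 member and population pairs in each library (points, 2 per group) with the group mean as a line, in the order untreated wildtype, untreated mutant, DSS-treated wildtype, DSS-treated mutant, with the vertical axis starting at 0. Every DSS point lies above every untreated point except for Hk2 in CD4 T cells, where every DSS point lies below.

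Levels in 3 further populations are given without a test. In innate lymphoid-like barcodes 2 members lay higher in all 4 DSS libraries than in all 4 untreated ones, against 5.56% of genes of at least 5 CPM, of 28 members at that level. Vegfa had 771, 646, 584 and 574 CPM without treatment and 1035, 1042, 1123 and 900 CPM after DSS, wildtype first, and Egln3 59.1 to 70.8 CPM and 115 to 140 CPM. Hk2, Pfkl and Gapdh lay lower in all 4, against 2.66% of genes, with Hk2 at 534, 706, 684 and 607 CPM and then 376, 525, 390 and 248 CPM.

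In neutrophil-like barcodes 11 of 31 members lay higher in all 4 DSS libraries, against 13.7% of genes, among them Slc16a3 (140 to 173 CPM and 200 to 312 CPM), Vegfa (93.8 to 160 CPM and 255 to 357 CPM), Hif1a, Pgk1 and Pkm. Pfkp and Ldhb lay lower, against 8.09% of genes. This cluster also held monocyte genes. Of the 178 neutrophil-like barcodes of the coarser clustering, untreated libraries gave 4.5%, 5.6%, 5.1% and 7.9%, wildtype first. DSS libraries gave 12.4%, 14.6%, 34.8% and 15.2% of them. Marker lists were not read in these 3 populations, and the part of a change in the mix of cells was not tested. In endothelial-like barcodes 5 of 31 lay higher, Gapdh, Pgk1, Pkm, Slc16a3 and Hif1a, against 7.96% of genes, and none lower, against 6.17%. Ankrd37 and Ddit4, for which these barcodes were highest, overlapped between the groups.

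The mutant was compared with the wildtype in untreated mice and after DSS, and the DSS effects of both genotypes were compared with each other. No member was called in any of the 5 populations by edgeR or DESeq2, and no gene at all was called by edgeR, so the share of all genes called was 0%. At an unadjusted p under 0.05 there were 2 of 32 members in untreated CD4 T cells (against 5.17% of all genes), 0 after DSS (1.66%) and 1 for the difference of DSS effects (3.92%). The counts in the same order were 1, 0 and 3 of 24 in Th17-like cells, against 5.14%, 1.99% and 3.95% of all genes. They were 2, 0 and 1 of 29 in Treg-like cells, against 4.25%, 2.29% and 3.56%. Macrophage- or monocyte-like barcodes had 1, 1 and 1 of 30, against 6.18%, 1.92% and 4.14%, and fibroblast-like barcodes 4, 0 and 3 of 32, against 4.2%, 2.59% and 4.31%. With 2 libraries a group, a missed threshold does not show that the genotypes were alike.

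The members with a raw p under 0.05 in untreated CD4 T cells were Slc2a1 and P4ha1, a collagen prolyl hydroxylase. P4ha1 had 47.1 and 61.9 CPM in wildtype and 72.9 and 76.1 CPM in mutant libraries, a difference of 0.45 ± 0.14 (edgeR adjusted p = 0.748). Slc2a1 had 15.9 and 15.1 CPM against 22.4 and 18.8 CPM, a difference of 0.41 ± 0.15 (edgeR adjusted p = 0.883). The untreated mutant libraries were the ones with high heat-shock genes, and the part of that in these differences was not tested. For Slc16a3 in CD4 T cells the DSS effect was larger in mutant than in wildtype mice by 0.50 ± 0.40, and for Slc16a1 in fibroblast-like barcodes by 0.41 ± 0.26, neither called (edgeR adjusted p = 1.0 and 0.998).

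Other genes of the same pathways, from a list of 33 glycolysis and pyruvate genes and one of 40 hypoxia-response genes, were read in the averaged comparison. The runs that left out a library, used another method or used a replicate block were read for the members only. Of the hypoxia list, 28 genes were tested in CD4 T cells (3 higher, 2 lower), 23 in Th17-like cells (1 and 2), 23 in Treg-like cells (1 and 2), 30 in macrophage- or monocyte-like barcodes (5 and 2) and 36 in fibroblast-like barcodes (8 and 0). The shares called were 17.9%, 13.0%, 13.0%, 23.3% and 22.2%, against 18.2%, 4.96%, 9.59%, 24.1% and 18.3% of all genes. The glycolysis and pyruvate list gave 0 higher and 3 lower of 20, 0 and 1 of 15, 0 and 0 of 17, 1 and 1 of 21 and 2 and 1 of 25 in the same order, or 15%, 6.67%, 0%, 9.52% and 12% called.

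Epas1, which encodes HIF-2 alpha, rose in 4 of the 5 populations, by 0.73 on the log2 scale in CD4 T cells, 1.55 in Th17-like cells, 1.46 in macrophage- or monocyte-like and 1.09 in fibroblast-like barcodes (edgeR adjusted p = 0.0075, 0.00267, 0.00294 and 0.00513). In Th17-like cells it had 39.3, 14.6, 38.1 and 18.6 CPM without treatment and 69.7, 52.3, 106 and 60.6 CPM after DSS. The groups did not overlap. Ndrg1, a hypoxia-induced gene, rose by 0.44 in CD4 T cells, 0.73 in Treg-like cells and 0.98 in fibroblast-like barcodes. In the latter the collagen-modifying enzymes Lox and Plod2 also rose, by 1.10 and 0.69, with the lipase inhibitor Angptl4 (1.48), the enolase Eno2 (0.99) and the pyruvate dehydrogenase kinase Pdk3 (0.63). In macrophage- or monocyte-like barcodes Pdk3 rose by 0.62 and Plod2 by 1.12 (edgeR adjusted p = 0.0444 for Plod2). Plod2 had only 1.058 to 2.323 CPM without treatment and 2.308 to 4.295 CPM after DSS there, with overlap, against 135.7 to 265.4 CPM in fibroblast-like barcodes. Epas1 in these macrophage- or monocyte-like barcodes had 4.765 to 6.35 and 12.56 to 25.77 CPM. At the levels of Plod2 and untreated Epas1, free RNA cannot be told apart from expression. The MAX-binding repressor Mxi1 rose by 0.58 in macrophage- or monocyte-like barcodes. In CD4 T cells it rose by 0.26, with overlap (edgeR adjusted p = 0.0489).

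Pfkfb4, a regulator of phosphofructokinase, fell by 0.78 in CD4 T cells, where it lay between 3.341 and 9.345 CPM. It also fell by 0.72 in fibroblast-like barcodes (edgeR adjusted p = 0.0211). Taldo1, the transaldolase of the pentose phosphate pathway, fell by 0.33 in CD4 T cells. Cited2, which competes with HIF-1 for a coactivator, fell by 0.46 in CD4 T cells and 0.56 in Th17-like cells. It also fell by 0.38 in macrophage- or monocyte-like barcodes, where the groups overlapped (edgeR adjusted p = 0.0453). Hilpda, a hypoxia-induced lipid droplet gene, was called lower in Th17-like cells, by 0.74 averaged (edgeR adjusted p = 0.0326) and by 1.43 in mutant mice (edgeR adjusted p = 0.00373). It was not called in wildtype mice, with 37.57 and 41.01 CPM without treatment and 31.04 and 56.12 CPM after DSS, which overlapped. Mutant libraries had 80.36 and 83.88 CPM and then 32.13 and 29.27 CPM. The untreated mutant libraries were the ones high in stress genes, and the part of that in the fall of Hilpda was not tested. Higd1a, a hypoxia-induced mitochondrial protein, fell by 0.28 in CD4 T cells and 0.36 in macrophage- or monocyte-like barcodes, with overlap in both (edgeR adjusted p = 0.0444 and 0.0405). Pdha1, a subunit of pyruvate dehydrogenase, fell by 0.30 in CD4 T cells and 0.55 in Th17-like cells, and the pyruvate carrier subunit Mpc2 by 0.74 in macrophage- or monocyte-like barcodes. In Treg-like cells Bhlhe41 and Bhlhe40, both hypoxia-induced repressors, fell by 1.26 and 0.37.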

How the data were processed

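UMI counts per gene and cell barcode were deposited by the authors as one table per library. The submitters' processing notes name Cell Ranger 3.1.0, Seurat 4.0.1 and the build mm10. A deposited list marks 27420 barcodes as CD4 cells; how they were chosen is not given in the sources used here, and all of them carry a Cd4 UMI. Gene symbols came from the tables, with 98.5% of identifiers matching the RefSeq name table.

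Barcodes with at least 400 genes and under 20% mitochondrial UMIs (96721) were scaled to 10000, log-transformed and clustered (scanpy 1.11.5, 2000 variable genes without the members and pathway genes, 30 components, 15 neighbours, Leiden resolution 1). Clusters were named from fixed marker lists. T cell clusters were those with at least 50% of the highest cluster's T cell marker level, a threshold set after seeing the clusters. The 32 genes and the pathway lists were chosen with earlier results of these data known.

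UMIs were summed per library and population. Levels are CPM of these sums, without further scaling. Differences come from edgeR 4.0.16 (R 4.3.3, limma 3.58.1) with its default filter on low counts, TMM scaling, 1 mean per group and all 8 libraries in each fit, so that fold changes and CPM ratios can differ. DESeq2 1.42.0 and limma-voom, the latter also with a replicate block, were alternatives. The test was tried on simulated counts, where 19 of 168 calls in the averaged and 11 of 99 in the wildtype comparison were false. The summed depth in CD4 T cells was 6202508 to 15050348 UMIs per library. Values in every library are given for members called in any population and for the 3 highest and 3 lowest fold changes of CD4 T cells; across cell types, the 8 members with the largest ratio of highest to second population are described. Promoter windows came from RefSeq (GRCm38.p6).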

Additional observations from a re-analysis of the deposited data

How the results depend on the processing

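The number of members called depended on the processing. Each count is followed by the share of all genes called in the same fit. Without the filter on low counts there were 4 in wildtype (4.3%), 5 in mutant (8.27%) and 11 averaged over genotypes (14%) in CD4 T cells, and 2 in mutant (2.5%) and 6 averaged (5.9%) in Treg-like cells. Macrophage- or monocyte-like barcodes then gave 3 (4.1%), 8 (11.8%) and 12 (16.5%), and fibroblast-like barcodes 5 in wildtype (7.45%) and 8 in mutant (10.6%). DESeq2 gave 1 in wildtype CD4 T cells (1.83%), and 1 in mutant (1.55%) and 2 averaged (2.56%) in Th17-like cells. With only the 4 libraries compared there was 1 in wildtype (0.663%) and 1 in mutant (1.05%) CD4 T cells. T cells free of other markers, by the filter described above, gave 1 in mutant (2.01%) and 3 averaged (8.83%). Leaving out the heat-shock T cell cluster gave 1 in mutant (2.55%). Within fibroblast-like cluster 10 there were 5 in wildtype (9.26%), and Pgk1 turned to -0.12 in the averaged comparison (added after seeing the data). Leaving out 1 library gave 0 to 1 (0% to 1.14%), 0 to 2 (0% to 5.04%) and 0 to 7 (1.65% to 17.8%) in CD4 T cells (wildtype, mutant, averaged). It gave 0 to 3 in mutant (0.109% to 4.45%) and 0 to 4 averaged (0.812% to 6.9%) in Th17-like cells, and 0 to 3 (0.0224% to 5.08%) and 0 to 5 (2.84% to 13.4%) in Treg-like cells. The ranges were 0 to 1 (0.00908% to 2.05%), 0 to 5 (0.0655% to 14.1%) and 2 to 11 (7.48% to 24.1%) in macrophage- or monocyte-like and 0 to 3 (0.215% to 7.19%), 1 to 7 (0.564% to 14.3%) and 2 to 10 (6.57% to 23.8%) in fibroblast-like barcodes. The coarser clustering kept the highest population of 18 genes. The causes were not tested. Calls that held in every alternative run were Vegfa and Ddit4 (averaged) in macrophage- or monocyte-like and Slc16a1 (mutant, averaged) and Hif1a (averaged) in fibroblast-like barcodes. Neighbouring animal numbers were tried as a replicate block for the mutant comparisons and gave 0 member calls; the labels do not say that numbers mark a shared litter or day, and the deviations of neighbours correlated at 0.006 to 0.329. For the averaged DSS comparison they were a random replicate block in limma-voom (consensus correlation 0.147 to 0.23, added after seeing the data), with 5 members in CD4 T cells (11.1%), 2 in Th17-like (3.33%) and 1 in Treg-like cells (5.09%), and 6 in macrophage- or monocyte-like (18.8%) and 7 in fibroblast-like barcodes (14.3%). limma-voom without the block gave 6 (16.9%), 4 (5.25%), 1 (8.27%), 8 (23.8%) and 11 (20.2%) in the same order. Low members such as Bnip3 and Vegfa had few UMIs in T cells, and the part of this in their calls was not tested.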
